A study of Homo sapiens with 12 samples.

Results

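The genes described here are 10 genes of the ATF4 arm of the integrated stress response, chosen by name: ATF4, ATF3, DDIT3, ASNS, CHAC1, TRIB3, SESN2, PSAT1, PHGDH and SHMT2. All 10 were found by symbol among the 59251 genes of the count table. They were measured by RNA-Seq in HL60 cells, the only line of these libraries, which derives from human acute myeloid leukemia. The cells were left non-treated or received, over 48 h, all-trans retinoic acid at 1 µM (ATRA), palbociclib, an inhibitor of CDK4 and CDK6, at 1 µM (CDK4/6i), or both at these doses (CDK4/6i+ATRA). Each of the 4 groups had 3 libraries, which the labels call biological replicates, so 12 libraries in all.

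The integrated stress response starts with kinases that phosphorylate the translation factor eIF2α when amino acids or heme run short, when unfolded proteins build up in the endoplasmic reticulum, or when viral RNA is present. Bulk translation then slows, while the mRNA of the transcription factor ATF4 is translated better, so that the level of ATF4 mRNA does not by itself give the level of ATF4 protein. ATF4 binds composite C/EBP-ATF elements and raises genes of amino acid uptake and synthesis, of redox balance and, when stress persists, of cell death. In leukemia cells the serine synthesis enzymes among its targets also feed one-carbon metabolism, which dividing cells use to make nucleotides.

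Read counts were scaled to a common library total with the TMM method of edgeR, a level given as CPM, and the 4 groups were fitted together for the 13318 genes that passed a filter on low counts. Calls rest on the quasi-likelihood test of edgeR at a threshold of 0.05 on the p-value adjusted by Benjamini and Hochberg across these genes, and every adjusted p below comes from that test. Total counts ranged from 12230923 to 18679544 per library, and 3 counts in a library correspond to 0.156 to 0.275 CPM, a floor that covers counting error only. MPO, a granule enzyme of promyelocytes, was the most abundant HL60 marker in non-treated cells at 6517 CPM, whereas the granule genes ELANE, PRTN3 and AZU1, which the table also lists on alternate contigs, were at 0 counts in every library. The 8 HL60 markers together summed to 6952 to 7265 CPM in non-treated libraries, 1311 to 1365 after ATRA, 4165 to 4285 after CDK4/6i and 1344 to 1421 after CDK4/6i+ATRA, a sum that MPO dominates in non-treated cells. Of the 5 markers tested, 3 were called higher and 2 lower after ATRA (median log2 fold change 0.62), 4 higher and 1 lower after CDK4/6i (0.26), and 3 higher and 1 lower after CDK4/6i+ATRA (0.75). Their part in the results below was not tested. The 10 markers of T, B, erythroid, epithelial and fibroblast cells summed to at most 3.27 CPM in any library. In bulk libraries, fewer cells that express a gene and less RNA per cell cannot be told apart.

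All 10 genes passed the filter, but ASNS and CHAC1 did so only through the non-treated and CDK4/6i groups, and ATF3 through the groups other than CDK4/6i. In the groups where they did not pass, at least 1 library held fewer than 10 counts, so these 3 genes were tested on account of the groups in which they were high.

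Upstream sequences of 9 of the 10 genes were found in RefSeq (GRCh38.p14), as 15 start sites of which some overlap. SHMT2 had no entry. The 250 bases before each start were searched on both strands for the C/EBP-ATF composite element, spelled TGATGNAA. ASNS held it as TGATGAAA, beginning 68 bases before its start, and ATF3 as TGATGGAA, beginning 191 bases before the upstream one of its 2 starts. CHAC1 held it on the opposite strand, read as TTGCATCA, 209 bases before its start. Of 35116 promoters of the same length in the table, 3.14% held the motif. Neither of the serine synthesis genes PHGDH and PSAT1 had a match within the same distance, which says only that these letters were not in that window. The cAMP response element TGACGTCA was found before none of the 9 genes and in 1.65% of all promoters, and the E-box CACGTG before ATF4 alone and in 6.34% of all promoters. Both motifs are spelled differently from the composite element, although TGACGTCA and TGATGNAA begin alike and share further letters. The 3 sequences with a match and the 2 of the enzymes with the largest falls in well-counted reads are given from 5′ to 3′ on the gene's strand, with the motif in capitals. They lie at chr7:97872409-97872658 (ASNS, minus strand), chr15:40953221-40953470 (CHAC1, plus strand), chr1:212565157-212565406 (ATF3, plus strand), chr1:119711684-119711933 (PHGDH, plus strand) and chr9:78296875-78297124 (PSAT1, plus strand).
ASNS: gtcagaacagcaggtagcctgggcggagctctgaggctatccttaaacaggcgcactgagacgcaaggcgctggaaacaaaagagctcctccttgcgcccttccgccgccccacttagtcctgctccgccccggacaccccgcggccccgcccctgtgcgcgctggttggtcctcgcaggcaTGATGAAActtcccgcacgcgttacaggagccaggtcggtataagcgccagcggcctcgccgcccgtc
CHAC1: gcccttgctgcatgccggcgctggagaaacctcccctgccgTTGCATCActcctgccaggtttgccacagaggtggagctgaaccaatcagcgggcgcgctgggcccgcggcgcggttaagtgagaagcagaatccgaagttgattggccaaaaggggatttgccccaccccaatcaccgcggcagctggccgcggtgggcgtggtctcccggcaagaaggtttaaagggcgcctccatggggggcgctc
ATF3: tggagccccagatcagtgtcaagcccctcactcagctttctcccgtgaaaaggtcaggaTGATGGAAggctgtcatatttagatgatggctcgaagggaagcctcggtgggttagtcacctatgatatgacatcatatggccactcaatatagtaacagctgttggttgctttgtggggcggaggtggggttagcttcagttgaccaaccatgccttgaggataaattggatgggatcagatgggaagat
PHGDH: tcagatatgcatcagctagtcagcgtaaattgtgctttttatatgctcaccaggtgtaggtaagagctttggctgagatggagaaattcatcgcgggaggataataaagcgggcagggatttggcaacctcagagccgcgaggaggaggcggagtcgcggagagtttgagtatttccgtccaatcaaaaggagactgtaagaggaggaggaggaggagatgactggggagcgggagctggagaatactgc
PSAT1: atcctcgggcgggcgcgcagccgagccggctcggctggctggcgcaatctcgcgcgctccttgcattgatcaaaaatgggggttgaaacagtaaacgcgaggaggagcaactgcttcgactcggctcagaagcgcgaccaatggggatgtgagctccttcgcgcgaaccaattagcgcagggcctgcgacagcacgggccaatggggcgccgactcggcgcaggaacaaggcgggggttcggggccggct

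The 10 genes did not move as a block. Compared with non-treated cells, ATRA lowered 9 of them and raised DDIT3, CDK4/6i lowered 8 and raised none, and CDK4/6i+ATRA lowered 7, raised DDIT3 and left ATF3 and SESN2 uncalled. These counts stand against a background of 67.6% of all tested genes called after ATRA, 56.2% after CDK4/6i and 81.7% after CDK4/6i+ATRA in either direction. The shares called lower were 35.5%, 27.9% and 40.7% of all tested genes, and those called higher 32.1%, 28.3% and 41%. In each of these comparisons, every called gene of the 10 had libraries that did not overlap those of non-treated cells, as did 70.3%, 60.7% and 81.8% of all tested genes. The median log2 fold change of the 10 genes was -1.04 after ATRA, -0.62 after CDK4/6i and -1.0 after CDK4/6i+ATRA, while that of all tested genes was -0.028, 0.020 and 0.018. The 3 comparisons share the non-treated libraries. Some genes counted as lower were tested only through groups in which they were high. These were ASNS and CHAC1 after ATRA and CDK4/6i+ATRA, and ATF3 after CDK4/6i. With at least 10 counts required in every library, 6 of the 10 genes were called after ATRA.

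**Figure D1:**
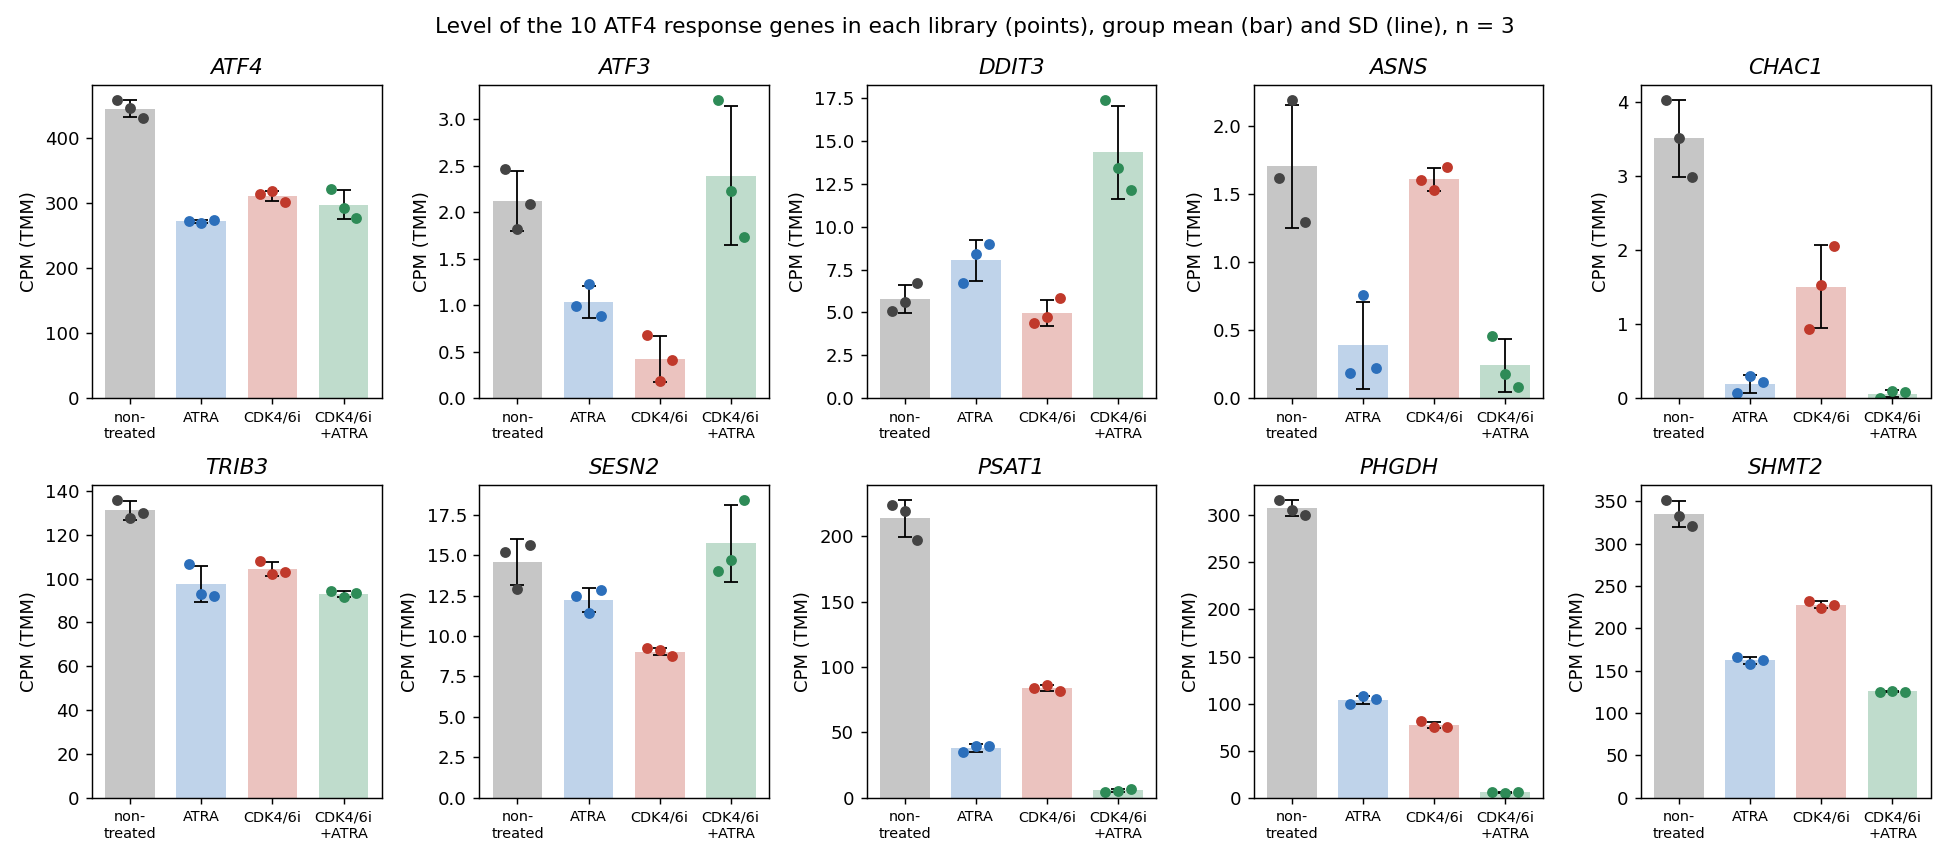
CPM (TMM-normalized, linear axes from 0) of each of the 10 genes in the 12 libraries, with points for libraries, bars for the mean and lines for the SD of 3 libraries per group. PHGDH and PSAT1 stood at 5.73 and 5.63 CPM in CDK4/6i+ATRA-treated cells, while DDIT3 was at its highest there (14.3 CPM) and ATF4 lay between 269.9 and 321 CPM in all 9 treated libraries.

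The genes also differed widely in how abundant they were. Per kilobase of exon, ATF4 was the highest of the 10 in non-treated cells at 219.8 ± 6.59 CPM per kb (SD, n = 3), followed by SHMT2 at 127 ± 5.95 and PSAT1 at 96.9 ± 6.55. PHGDH at 52.8 ± 1.46 and TRIB3 at 47.6 ± 1.56 CPM per kb came next, and the other 5 genes were below 5 CPM per kb. DDIT3 (4.57 ± 0.645) and SESN2 (4.21 ± 0.418) did not differ beyond their spread, nor did ATF3 (0.732 ± 0.112) and ASNS (0.527 ± 0.141). In CDK4/6i+ATRA-treated cells the order was ATF4 at 147, SHMT2 at 47.7 and TRIB3 at 33.7 CPM per kb, then DDIT3 at 11.3 and SESN2 at 4.54. PSAT1 followed at 2.55 ± 0.524 CPM per kb. PHGDH (0.984 ± 0.0860) and ATF3 (0.825 ± 0.259) did not differ beyond their spread, nor did ASNS (0.0742 ± 0.0604) and CHAC1 (0.0377 ± 0.0327 CPM per kb), the lowest of the 10. PSAT1 and PHGDH thus went from above TRIB3 to below SESN2.

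**Figure D2:**
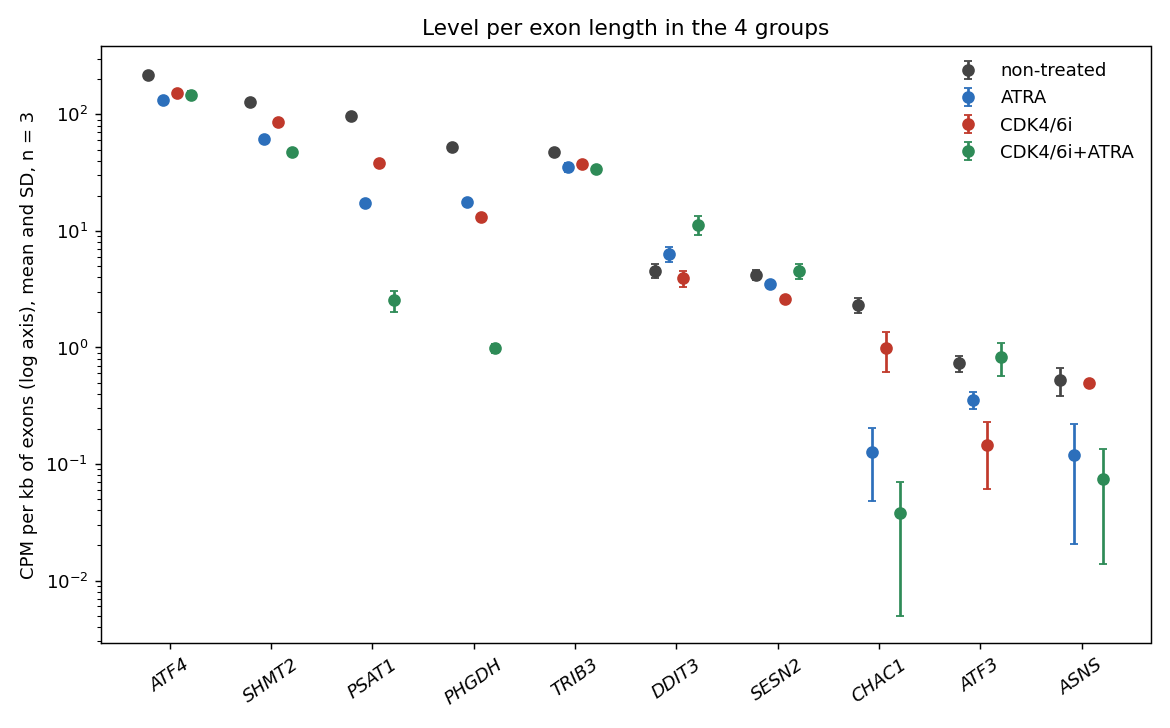
Mean CPM per kilobase of exon in the 4 groups (log axis) for the 10 genes, ordered by the non-treated level, with lines for the SD of 3 libraries. ATF4 was the highest gene in every group, and the points of PSAT1, PHGDH and CHAC1 spread over more than a power of 10.

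ATF4, the transcription factor that gives the response its name (chromosome 22, 39520559 to 39522686, plus strand, hg38), was lower in all 3 treated groups. Its level was 458, 447 and 432 CPM in the non-treated libraries, 272, 269.9 and 274 after ATRA, 313, 318 and 302 after CDK4/6i, and 321, 293 and 278 after CDK4/6i+ATRA. The lowest non-treated library was above the highest treated one, and the treated groups lay within a narrow band. The log2 fold change was -0.71 (SE 0.040, adjusted p = 1.25e-21) after ATRA, -0.52 (SE 0.039, adjusted p = 3.34e-16) after CDK4/6i and -0.58 (SE 0.040, adjusted p = 2e-18) after CDK4/6i+ATRA. Adding ATRA to CDK4/6i was not called (log2 fold change -0.07, SE 0.041, adjusted p = 0.129), but it was called with scaling by library size alone (-0.343, adjusted p = 6.58e-09), with no filter (-0.169, adjusted p = 0.000666) and without CDK4/6i+ATRA library 1 (-0.125, adjusted p = 0.00361). Less the median of all tested genes, which library size alone moves to -0.276, the value was -0.068 with TMM and -0.066 with library size alone. Adding CDK4/6i to ATRA gave 0.13 (SE 0.041, adjusted p = 0.00513), which turned to -0.18 with scaling by library size alone and lost its call without CDK4/6i+ATRA library 1 (0.069, adjusted p = 0.119). A pseudogene of ATF4, ATF4P3, held 706 counts over all libraries, 1.12% of those of ATF4.

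Across the 12 libraries, the genes whose log2(CPM + 1) followed ATF4 most closely, among 9300 genes with a mean of at least 5 CPM, were XPO6, an exportin (Pearson r 0.98), PLEKHJ1 (0.976) and COPRS (0.976). These values describe 12 points in 4 groups that share their treatments. XPO6 went from 183 CPM in non-treated cells to 129, 137 and 136 CPM after ATRA, CDK4/6i and CDK4/6i+ATRA. Of the other 9 genes, ATF3, ASNS and CHAC1 averaged less than 5 CPM and were not searched. None of the rest was among the 3 closest.

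ATF3 and DDIT3, transcription factors of the same family that ATF4 is known to induce, were higher after both drugs than after either drug alone. DDIT3 encodes CHOP, which is known for its part in cell death under persistent stress. It was counted at 5.11, 5.58 and 6.70 CPM in non-treated cells, 6.72, 8.40 and 9.01 after ATRA, 4.41, 4.71 and 5.85 after CDK4/6i, and 17.4, 13.5 and 12.1 after CDK4/6i+ATRA. The 3 CDK4/6i+ATRA libraries were above all 9 others, the lowest ATRA library was just above the highest non-treated one, and the CDK4/6i libraries overlapped the non-treated ones. The log2 fold change was 0.47 (SE 0.150, adjusted p = 0.00491) after ATRA, -0.22 (SE 0.162, adjusted p = 0.244) after CDK4/6i and 1.3 (SE 0.146, adjusted p = 2.8e-11) after CDK4/6i+ATRA. The combination was 1.52 (SE 0.148, adjusted p = 4.36e-13) above CDK4/6i alone and 0.82 (SE 0.138, adjusted p = 7.44e-07) above ATRA alone.

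DDIT3 (chromosome 12, 57516588 to 57521698, minus strand) shares 155 of its 1268 exon bases, 12.2%, with genes on the opposite strand. These are MARS1 with 65 bases and MBD6 with 90 bases. The libraries were directional, but whether reads were counted by strand was not given in the sources used here. MBD6 rose after CDK4/6i+ATRA by 1.23 (SE 0.066, adjusted p = 1.55e-22) and MARS1 fell by 0.83 (SE 0.041, adjusted p = 5.79e-24) on the log2 scale. Their part in the DDIT3 counts was not tested.

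ATF3, an early stress gene known to act mostly as a repressor, was low in every group. The libraries held 41, 29 and 37 counts in non-treated cells, 16, 21 and 16 after ATRA, 13, 3 and 7 after CDK4/6i, and 35, 25 and 21 after CDK4/6i+ATRA. In CPM the means were 2.12 ± 0.325, 1.03 ± 0.175, 0.422 ± 0.246 and 2.39 ± 0.750 (SD, n = 3). Either drug alone left every library below the non-treated ones, while the CDK4/6i+ATRA libraries lay on both sides of them.

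The log2 fold change of ATF3 was -1.04 after ATRA (SE 0.323, adjusted p = 0.00399) and -2.27 after CDK4/6i (SE 0.378, adjusted p = 8.81e-07). With CDK4/6i+ATRA the value was 0.16 (SE 0.302, adjusted p = 0.626), and -0.10 with scaling by library size alone or without CDK4/6i+ATRA library 1, so no direction against non-treated cells is given. The combination was nonetheless above CDK4/6i alone (log2 fold change 2.43, SE 0.390, adjusted p = 2.01e-07) and above ATRA alone (1.20, SE 0.336, adjusted p = 0.00143). Its printed upstream sequence, one of those with the composite element, precedes the first base of the gene as the table gives it (chromosome 1, 212565407 to 212620777).

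TRIB3, a pseudokinase that is known to bind ATF4 and restrain it, fell modestly in all treated groups. It was at 136, 128 and 129.9 CPM in non-treated cells, 107, 93.1 and 92.0 after ATRA, 108, 102 and 103 after CDK4/6i, and 94.1, 91.4 and 93.2 after CDK4/6i+ATRA. No treated library reached the non-treated range. The log2 fold changes were -0.43 (SE 0.046, adjusted p = 7.54e-12), -0.33 (SE 0.045, adjusted p = 1.71e-08) and -0.50 (SE 0.048, adjusted p = 2.79e-13) in the same order. The combination was below CDK4/6i alone (log2 fold change -0.17, SE 0.049, adjusted p = 0.00172) and was not called against ATRA alone (-0.07, SE 0.049, adjusted p = 0.24). The latter was called with scaling by library size alone (-0.372, adjusted p = 3.98e-08), with no filter (-0.159, adjusted p = 0.00933) and with only the groups compared (-0.13, adjusted p = 0.0294). Less the all-gene median, the value was -0.109 with TMM and -0.11 with library size alone, which, as for ATF4, does not test the call.

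SESN2, a leucine sensor of the mTORC1 pathway that also protects from oxidative stress, was lowest after CDK4/6i. Its level was 15.2, 12.9 and 15.6 CPM in non-treated cells, 12.4, 11.4 and 12.8 after ATRA, 9.23, 9.11 and 8.78 after CDK4/6i, and 14, 14.7 and 18.4 after CDK4/6i+ATRA. The CDK4/6i libraries were below all others, whereas the CDK4/6i+ATRA libraries overlapped the non-treated ones. With CDK4/6i the log2 fold change was -0.69 (SE 0.110, adjusted p = 4e-07).

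The value of SESN2 after ATRA, -0.25 (SE 0.105, adjusted p = 0.0292), was close to the threshold and was lost under 8 of the alternatives tried, among them leaving out non-treated library 1 or 3 (adjusted p = 0.0952 and 0.132) or ATRA library 2 (adjusted p = 0.119). Against non-treated cells the combination gave 0.11 (SE 0.108, adjusted p = 0.336), and -0.16 with scaling by library size alone. It was above CDK4/6i alone by 0.80 (SE 0.115, adjusted p = 1.91e-08) and above ATRA alone by 0.37 (SE 0.110, adjusted p = 0.00296), but the latter was not called with scaling by library size alone (0.058, adjusted p = 0.645) or without CDK4/6i+ATRA library 3 (0.232, adjusted p = 0.0888). SESN2 (chromosome 1, 28259518 to 28282491) is also listed on an alternate contig, which doubles the length in the table from 3462 to 6924 bases, and the shorter length was used for the level per kilobase.

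CHAC1, an enzyme that degrades glutathione and is a known target of ATF4, fell to near the floor in ATRA-treated and CDK4/6i+ATRA-treated cells. Its counts were 67, 56 and 53 in the non-treated libraries, 1, 5 and 4 after ATRA, 18, 25 and 35 after CDK4/6i, and 0, 1 and 1 after CDK4/6i+ATRA. Each treated group lay below the non-treated one, and the ATRA and CDK4/6i+ATRA libraries overlapped near the floor.

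From the summed counts, CHAC1 was 18-fold lower after ATRA (95% exact interval 9.56 to 38.2) and 59.8-fold lower after CDK4/6i+ATRA (16.3 to 497.9), where 2 counts remained against 176 in non-treated cells. These intervals cover counting error only. The fitted log2 fold changes of CHAC1 were -4.12 (SE 0.419, adjusted p = 1.63e-12) after ATRA, -1.23 (SE 0.287, adjusted p = 0.000242) after CDK4/6i and -5.73 (SE 0.597, adjusted p = 1.13e-12) after CDK4/6i+ATRA. The last one depends on how counts near 0 are handled. The difference between CDK4/6i+ATRA and ATRA alone was not detectable at this depth (3.32-fold lower by counts, interval 0.708 to 31.2, adjusted p = 0.16).

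ASNS, asparagine synthetase, whose upstream sequence with the C/EBP-ATF element is printed above, was sparse too. It was counted at 27, 35 and 23 in the non-treated libraries, 3, 13 and 4 after ATRA, 31, 25 and 29 after CDK4/6i, and 5, 2 and 1 after CDK4/6i+ATRA. The CDK4/6i libraries lay within the non-treated range, whereas every ATRA and CDK4/6i+ATRA library lay below it. By summed counts it was 4.35-fold lower after ATRA (95% exact interval 2.65 to 7.47) and 7.22-fold lower after CDK4/6i+ATRA (3.50 to 17.3).

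The fitted log2 fold changes of ASNS were -2.10 (SE 0.430, adjusted p = 2.35e-05) after ATRA, -0.07 (SE 0.335, adjusted p = 0.87) after CDK4/6i and -2.81 (SE 0.533, adjusted p = 4.25e-06) after CDK4/6i+ATRA. The ATRA value was -3.01 without ATRA library 2, which held 13 of the 20 counts, and the CDK4/6i+ATRA value was -3.64 without the first library of that group. The combination was also below CDK4/6i alone (-2.74, SE 0.535, adjusted p = 7.93e-06, and -3.57 without its first library). ASNS (chromosome 7, 97851677 to 97928441, minus strand) shares 2247 of its 3233 exon bases, 69.5%, with the read-through gene CZ1P-ASNS on the same strand. How reads in the shared exons were assigned is not known, so the level of ASNS is uncertain, and only 29 counts were given to the read-through gene against 198 to ASNS.

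PHGDH, PSAT1 and SHMT2 act in the making of serine and its conversion to glycine and one-carbon units, and all 3 fell with either drug and further with both. PHGDH catalyzes the committed step of serine synthesis. Its level was 317, 305 and 300.1 CPM in non-treated cells, 99.2, 108 and 105 after ATRA, 81.1, 75.0 and 75.1 after CDK4/6i, and 6.14, 5.17 and 5.87 after CDK4/6i+ATRA. The 4 groups did not overlap at all.

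In relative terms, PHGDH was at 33.8% of the non-treated mean after ATRA, 25.1% after CDK4/6i and 1.86% after CDK4/6i+ATRA, a 53.7-fold lower level. The log2 fold changes were -1.56 (SE 0.040, adjusted p = 2.47e-35), -1.99 (SE 0.042, adjusted p = 6.11e-39) and -5.74 (SE 0.069, adjusted p = 2.11e-50). Only 67 of the 9300 genes with a mean of at least 5 CPM had a lower value in the last comparison. PHGDH lies on chromosome 1, 119711934 to 119744215, plus strand.

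PSAT1, the transaminase of the next step of serine synthesis (chromosome 9, 78297125 to 78330093, plus strand), showed the same pattern with the drugs in the other order. It was at 224, 219.8 and 197 CPM in non-treated cells, 34.7, 39.6 and 39.8 after ATRA, 84.3, 86.3 and 81.8 after CDK4/6i, and 4.77, 5.17 and 6.94 after CDK4/6i+ATRA. Again no 2 groups overlapped, and ATRA alone lowered PSAT1 more than CDK4/6i alone did, the reverse of PHGDH.

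PSAT1 stood at 17.8% of the non-treated mean after ATRA, 39.4% after CDK4/6i and 2.63% after CDK4/6i+ATRA, which is 38-fold lower. The log2 fold changes were -2.49 (SE 0.054, adjusted p = 1.23e-38), -1.34 (SE 0.049, adjusted p = 7.74e-29) and -5.24 (SE 0.081, adjusted p = 1.7e-45). The combination was below CDK4/6i alone on the log2 scale for PSAT1 (-3.89, SE 0.091, adjusted p = 1.09e-37) and for PHGDH (-3.75, SE 0.081, adjusted p = 3.19e-39). Against ATRA alone the values were -2.75 (SE 0.103, adjusted p = 1.08e-28) for PSAT1 and -4.18 (SE 0.077, adjusted p = 1.11e-41) for PHGDH.

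SHMT2, the mitochondrial enzyme that splits serine into glycine and a one-carbon unit, fell less. It was at 352, 333 and 321 CPM in non-treated cells, 167, 158 and 163 after ATRA, 232, 224 and 227 after CDK4/6i, and 125, 126 and 125 after CDK4/6i+ATRA. The groups were again separate, and the combination was the lowest. The log2 fold changes were -1.05 (SE 0.038, adjusted p = 3.34e-29), -0.56 (SE 0.037, adjusted p = 2.39e-18) and -1.42 (SE 0.040, adjusted p = 3.12e-34), and that of the combination against ATRA alone was -0.37 (SE 0.042, adjusted p = 4.18e-11). SHMT2 (chromosome 12, 57229711 to 57234935, plus strand) shares 33 exon bases with NDUFA4L2 on the opposite strand.

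Adding ATRA to CDK4/6i changed 9 of the 10 genes, 6 downward and DDIT3, ATF3 and SESN2 upward, against 78.6% of all tested genes called (39.1% higher and 39.5% lower). The libraries of these 9 genes did not overlap, as was so for 78.9% of all tested genes. Of these, ATF3 did not pass the filter in the CDK4/6i group, nor ASNS and CHAC1 in the CDK4/6i+ATRA group. Adding CDK4/6i to ATRA changed 7, with PHGDH, PSAT1 and SHMT2 downward and DDIT3, ATF3, SESN2 and ATF4 upward, against 69.8% of all tested genes (36.9% higher and 32.8% lower), and the libraries of these 7 did not overlap, as was so for 71.9% of all tested genes. Among these 7, ATF4 turned to a fall and SESN2 lost its call with scaling by library size alone, under which the median of all tested genes moved from 0.044 to -0.26. Relative to that median, the value of ATF4 was 0.083 with TMM and 0.085 with library size alone, and that of SESN2 0.322 and 0.319.

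Whether the drugs acted independently on the log2 scale was tested as an interaction, which is the log2 fold change of the combination less the sum of those of the single drugs. It was called for 8 of the 10 genes, against 51.4% of all tested genes (24.5% positive and 27% negative). It was negative for PHGDH (-2.19, SE 0.101, adjusted p = 3.81e-24) and PSAT1 (-1.40, SE 0.123, adjusted p = 6.86e-14), which fell by more than the sum. For ATF3 it was 3.47 (SE 0.508, adjusted p = 7.48e-08), for SESN2 1.06 (SE 0.156, adjusted p = 9.78e-08) and for DDIT3 1.05 (SE 0.213, adjusted p = 4.09e-05).

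For ATF4 the interaction of 0.65 (SE 0.057, adjusted p = 6.76e-14) stands beside log2 fold changes of -0.71, -0.52 and -0.58 after ATRA, CDK4/6i and both, and it was 0.33 with scaling by library size alone. TRIB3 (0.26, SE 0.067, adjusted p = 0.000818) and SHMT2 (0.19, SE 0.056, adjusted p = 0.0044) had small positive values, which turned to -0.055 and -0.13 under that scaling. It shifts the median interaction of all tested genes from -0.022 to -0.34, and relative to the median TRIB3 was at 0.286 and SHMT2 at 0.207 with either scaling. With no filter neither was called (TRIB3 0.178, adjusted p = 0.0594, and SHMT2 0.1, adjusted p = 0.37). For ASNS (-0.64, SE 0.777, adjusted p = 0.51) and CHAC1 (-0.38, SE 1.23, adjusted p = 0.77), whose counts were near the floor after ATRA, a departure was not detectable at this depth.

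**Figure D3:**
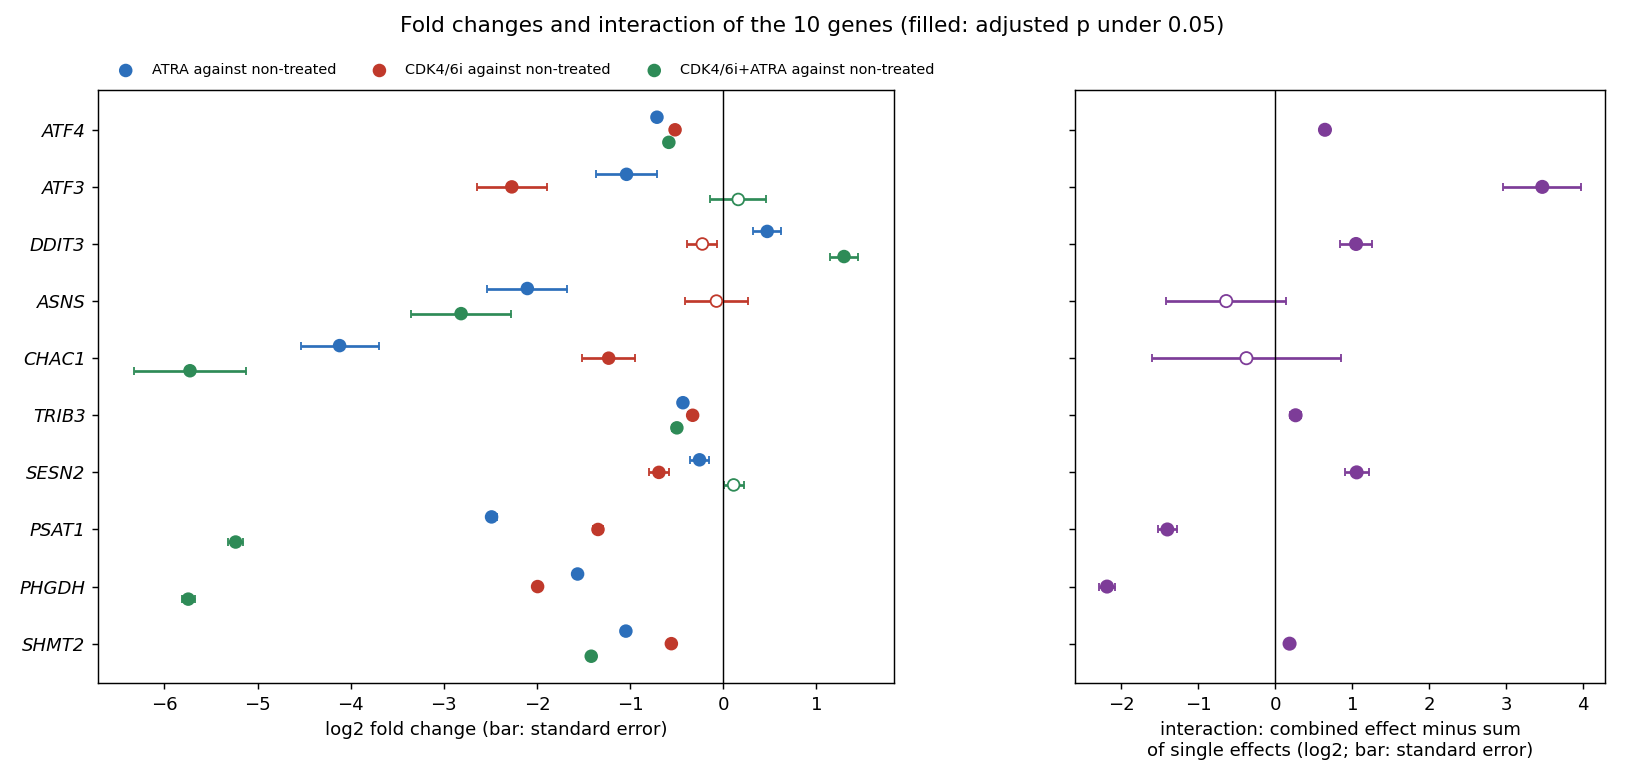
Log2 fold changes of the 10 genes against non-treated cells (left) and their interactions (right), with lines for the standard error and filled points for an adjusted p under 0.05. PHGDH and PSAT1 after CDK4/6i+ATRA lay at -5.74 and -5.24 with negative interactions, while DDIT3 was the only gene above 0 among the filled points on the left, and the CHAC1 value at -5.73 rests on 2 counts.

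The other genes of the pathway were described with 7 lists compiled by hand from general knowledge, with earlier results of these data known. The counts therefore describe the lists and do not test them. Each count below is to be read against the shares of all tested genes in the same comparison, which were 40.7% lower and 41% higher after CDK4/6i+ATRA, 35.5% and 32.1% after ATRA, and 27.9% and 28.3% after CDK4/6i. The median log2 fold change of all tested genes was 0.018, -0.028 and 0.020 in that order. Upstream of ATF4, the 14 genes of eIF2α kinases, eIF2 and eIF2B subunits and eIF2α phosphatase subunits were all tested, and after CDK4/6i+ATRA 11 were called lower, 2 higher and 1 not called, with a median log2 fold change of -0.56. With ATRA 9 were lower and 3 higher (median -0.32), and after CDK4/6i 8 lower and 2 higher (median -0.16). The 2 that rose after the combination were the regulatory subunits of the eIF2α phosphatase. PPP1R15A, known as GADD34 and itself an ATF4 target that ends the response, went from 26 ± 2.08 CPM in non-treated cells to 43.7 ± 2.77 after ATRA, 43.2 ± 0.743 after CDK4/6i and 191 ± 3.76 after CDK4/6i+ATRA (SD, n = 3). Its log2 fold change after the combination was 2.87 (SE 0.055, adjusted p = 9.05e-42) and its interaction 1.39 (SE 0.081, adjusted p = 2.73e-20). PPP1R15B, the constitutive subunit, rose by 0.79 (SE 0.044, adjusted p = 5.6e-22).

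All 4 kinases were called lower after CDK4/6i+ATRA. EIF2AK4 (GCN2, the sensor of uncharged tRNA) fell by 1.02 and EIF2AK1 (the heme-regulated kinase) fell by 0.94 on the log2 scale, while EIF2AK3 (PERK, the sensor of the endoplasmic reticulum) and EIF2AK2 (PKR, the sensor of double-stranded RNA) fell by 0.28 and fell by 0.25. The adjusted p lay between 5.1e-27 and 0.00839. EIF2B3, a subunit of the exchange factor of eIF2, had the largest fall of the list (-1.60, SE 0.082, adjusted p = 2.12e-23).

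Partners of ATF4 and other targets of ATF4 or CHOP split evenly. Of 20 genes 17 were tested, and after CDK4/6i+ATRA 8 were called higher and 9 lower (median -0.37), after ATRA 8 and 9 (median -0.73), and after CDK4/6i 6 and 8 (median 0.045). GDF15, a secreted stress cytokine, had no count in any non-treated library, 119, 83 and 80 counts after ATRA, 0, 1 and 0 after CDK4/6i, and 1985, 2076 and 2110 after CDK4/6i+ATRA. Taking 3 counts in each non-treated library as the floor, it was at least 1007-fold higher after the combination. The list's median after the combination was -0.632 with scaling by library size alone and -1.03 with no filter. Setting GDF15 to its bound leaves the median of -0.37 as it is, since GDF15 is the highest value either way. SQSTM1, the autophagy receptor p62, rose by 3.62 (SE 0.049, adjusted p = 5.83e-48), from 134 to 1642 CPM, and is also listed on an alternate contig. EIF4EBP1, a repressor of cap-dependent translation, was at 77.2 CPM in non-treated and 6.15 CPM in CDK4/6i+ATRA-treated cells (log2 fold change -3.65, SE 0.097, adjusted p = 1.89e-35), and the transcription factor ATF5 at 225 CPM and 27.4 CPM (-3.04, SE 0.057, adjusted p = 6.3e-42).

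Amino acid transporters and biosynthetic enzymes mostly fell after the combination. Of 10 transporters tested from a list of 12, 9 were called lower and 1 higher after CDK4/6i+ATRA (median -1.77), as after ATRA (median -0.91), while CDK4/6i alone gave 8 lower and 1 higher (median -0.57). The 1 that rose in all 3 comparisons was SLC7A11, which imports cystine for glutathione synthesis, from 44.5 ± 1.85 CPM to 119 ± 3.23 after ATRA, 85.1 ± 1.14 after CDK4/6i and 349 ± 16.6 after CDK4/6i+ATRA (SD, n = 3). The neutral amino acid carriers SLC1A4 (-4.13, SE 0.063, adjusted p = 5.42e-46) and SLC38A1 (-3.33, SE 0.048, adjusted p = 7.01e-47) fell the most.

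Of 13 other enzymes of serine, one-carbon, proline and amino acid metabolism tested from a list of 15, 12 were called lower after CDK4/6i+ATRA and none higher (median -1.95, beside 40.7% and 41% of all tested genes). With ATRA 11 were lower and 1 higher (median -1.17), and after CDK4/6i 6 lower and 1 higher (median -0.21). PYCR1, which makes proline in mitochondria, was at 62.5 CPM in non-treated cells, 7.84 after ATRA, 76.8 after CDK4/6i and 1.72 after CDK4/6i+ATRA (9, 20 and 31 counts in the last group, log2 fold change of the combination -5.15, SE 0.127, adjusted p = 6.68e-37). MTHFD1L, a mitochondrial enzyme of the folate cycle, was at 101, 28.0, 52.3 and 3.35 CPM in the same order (-4.90, SE 0.090, adjusted p = 1.88e-42). The interaction was called for 11 of the 13, each time with a negative value, where 51.4% of all tested genes were called and 27% were negative.

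Of 12 cytosolic tRNA synthetases, 9 were called lower and 1 higher after the combination (median -0.98, beside 40.7% and 41% of all tested genes), 11 and 1 after ATRA (median -0.85, beside 35.5% and 32.1%) and 6 and 2 after CDK4/6i (median -0.25). The 1 that rose was WARS1, which interferon also induces (1.86, SE 0.040, adjusted p = 2.25e-39). AARS1 had a log2 fold change of -3.25 (SE 0.058, adjusted p = 5.36e-43) and IARS1, which is also listed on an alternate contig, of -2.53 (SE 0.043, adjusted p = 1.12e-43).

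The other stress pathways that use ATF4 or run beside it were compared in the same way. Of 20 endoplasmic reticulum chaperones and targets of ATF6 or XBP1, 15 were lower and 5 higher after the combination (median -0.95, beside 40.7% and 41% of all tested genes), and 16 and 3 after ATRA (median -0.81). With CDK4/6i alone the list moved the other way, with 13 higher and 2 lower (median 0.18, beside 28.3% and 27.9%). The chaperone HSP90B1 was at 665, 307, 757 and 113 CPM in non-treated, ATRA, CDK4/6i and CDK4/6i+ATRA cells, and XBP1 at 233, 81.0, 212 and 32.3 CPM. EDEM1, of the degradation of misfolded glycoproteins, rose by 1.08 (SE 0.040, adjusted p = 1.87e-29) and ERN1, the IRE1α sensor, by 0.81 (SE 0.093, adjusted p = 4.13e-11) after the combination.

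Of 12 mitochondrial chaperones, proteases and relay genes, 10 were lower and 2 higher after the combination (median -1.60, beside 40.7% and 41% of all tested genes), 10 and 1 after ATRA (median -0.89) and 9 and 2 after CDK4/6i (median -0.13). DELE1, which relays mitochondrial stress to the heme-regulated kinase, rose by 0.86 (SE 0.049, adjusted p = 1.05e-21). YME1L1, a protease of the inner membrane, gave 0.09 (SE 0.036, adjusted p = 0.0215), which turned to -0.18 with scaling by library size alone. Its call was lost with only the groups compared (0.082, adjusted p = 0.0608), without non-treated library 3 (0.075, adjusted p = 0.0766) and without CDK4/6i+ATRA library 3 (0.08, adjusted p = 0.055). The chaperones HSPE1 (-3.38, SE 0.084, adjusted p = 9.28e-37) and TRAP1 (-3.14, SE 0.062, adjusted p = 4.02e-41) fell the most, with 40.6% of the exon bases of HSPE1 shared with a read-through gene and 39.6% of those of TRAP1 with genes on the opposite strand.

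**Figure D4:**
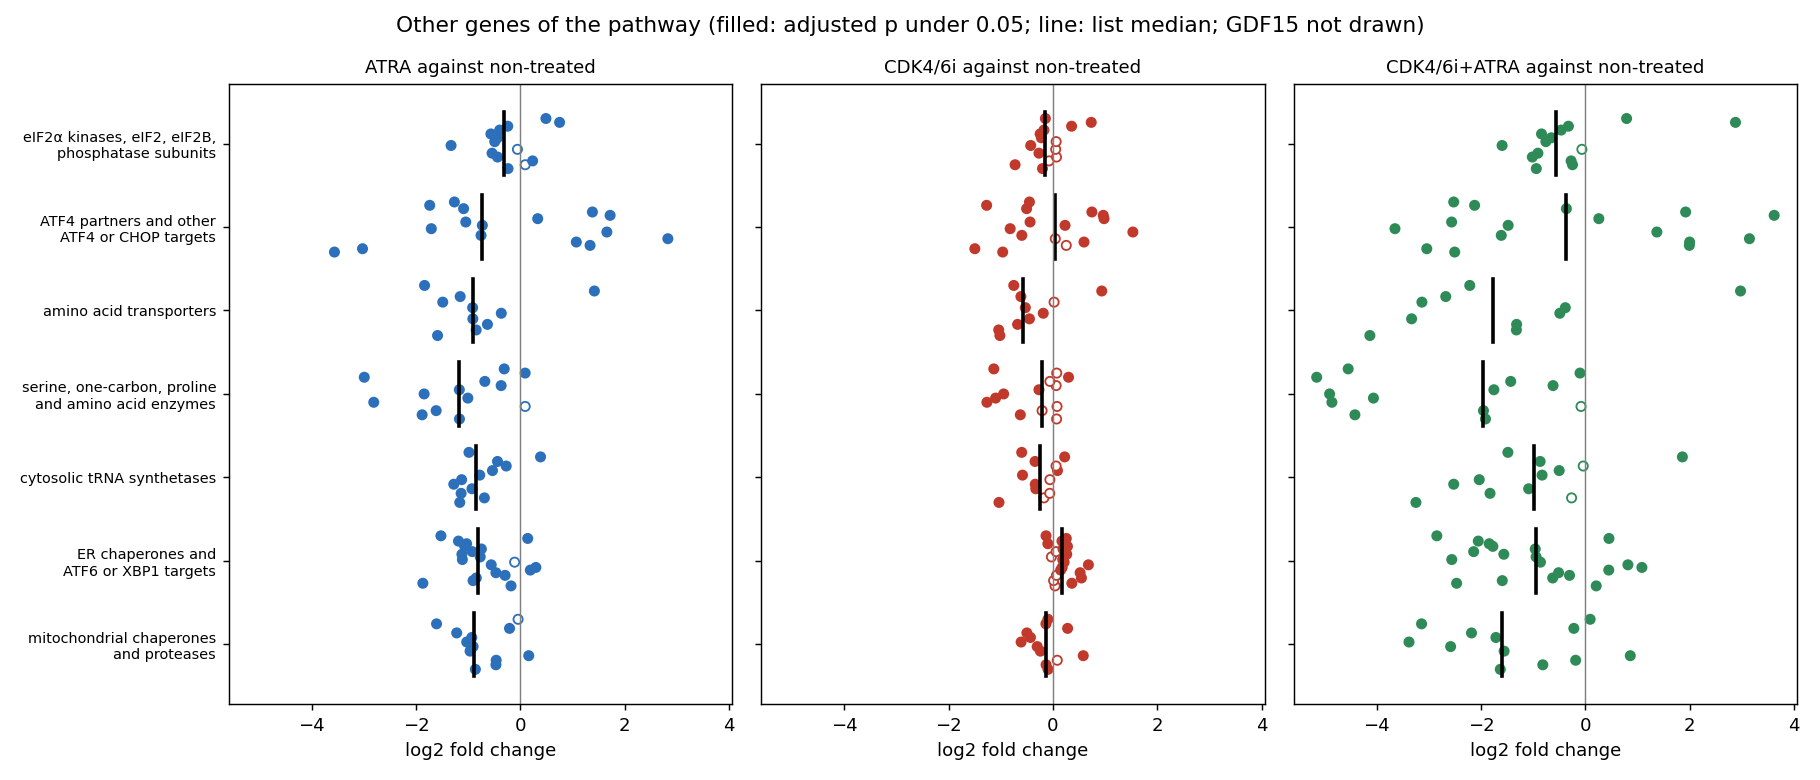
Log2 fold changes against non-treated cells of the other pathway genes by list, with a point per gene, filled points for an adjusted p under 0.05 and a line at the median of each list. GDF15, with no count in non-treated cells, is left out of the points but counted in the median, and of the endoplasmic reticulum list 13 of 20 genes were called higher after CDK4/6i and 15 of 20 lower after CDK4/6i+ATRA.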

How the data were processed

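RNA-Seq data of 12 HL60 libraries, 3 in each of 4 groups, were analysed. Per the labels and the methods of the study, total RNA was made into directional libraries, reads were trimmed with Trimmomatic 0.33 and aligned with STAR 2.7.11a to hg38 under the NCBI RefSeq annotation. The authors deposited raw counts per gene, whole numbers without normalization, and name RSEM as their source, whereas the table has the layout that featureCounts writes. It lists 59251 genes, of which 31154 had no count, and 4379 of them lie on an alternate contig as well as a primary chromosome. Of the latter, 65.9% had no count, against 51.5% of the others. Groups were taken from the labels.

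Genes were filtered with filterByExpr, which kept 13318, normalized with TMM and tested with the quasi-likelihood F test of edgeR 4.0.16 (R 4.3.3) on a model of the 4 groups, with p-values adjusted by Benjamini and Hochberg across the tested genes (threshold 0.05). The fit had 8 residual degrees of freedom and a common biological coefficient of variation of 3.7%. The 6 contrasts were tested, two-sided. An exact permutation test of 3 against 3 libraries cannot go below p = 0.1 and was not used for calls. Total counts of 12230923 to 18679544 per library set the precision of low genes, and exact intervals of count ratios (95%) cover counting error only, since reads that carry no molecular identifier may stem from the same molecule. Pairs of libraries of a group differed by more than sampling noise (chi-square per degree of freedom 1.83 to 6.49) and each was counted as a replicate. CPM per kilobase used the exon length on the primary chromosome.

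The 10 genes and the 7 lists were chosen with earlier results of these data known. From each list, at most 2 genes that rose and 2 that fell most with CDK4/6i+ATRA were named, among called genes averaging 5 CPM or more, together with the 4 eIF2α kinases. MPO, the granule genes, MARS1, MBD6 and the genes of shared exons were named for the checks they bear on. Each result was recomputed with library size alone or the size factors of DESeq2, without a filter or with at least 10 counts in each library, with the replicate number as a block, on the compared groups alone, with DESeq2 1.42.0, and without each library. On simulated counts with 200 changed genes among 12341, 165 were recovered for the combination compared with non-treated cells, beside 10 false calls, and 155 for the interaction, beside 13. False calls were 5.71% and 7.74% of the calls. Only the CDK4/6i+ATRA group was changed in the simulation. In the data, 81.7% of tested genes were called for the combination and 51.4% for the interaction. The simulation therefore does not test the scaling where most genes change.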

Additional observations from a re-analysis of the deposited data

Results flagged for a closer look

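The effect of ATRA differed between cells with and without CDK4/6i for 8 of the 10 genes and for PPP1R15A, by the interaction test of edgeR given above, against 51.4% of all tested genes. On the log2 scale, the effect with CDK4/6i less the effect without was -2.19 for PHGDH and -1.40 for PSAT1. It was 3.47 for ATF3, 1.39 for PPP1R15A, 1.06 for SESN2 and 1.05 for DDIT3. ATRA gave values of opposite sign without and with CDK4/6i for ATF3 (-1.04 and 2.43) and SESN2 (-0.25 and 0.80), and a rise in both settings for DDIT3 (0.47 and 1.52). The SESN2 value of -0.25 lost its call under several alternatives, as given above. The ATF3 value of 2.43 rests on 13, 3 and 7 counts after CDK4/6i, a group in which ATF3 did not pass the filter. The value was 0.65 for ATF4, 0.26 for TRIB3 and 0.19 for SHMT2, of which the last 2 changed sign with scaling by library size alone but stood at 0.286 and 0.207 above the median of all genes with either scaling. With no filter, neither TRIB3 (0.178, adjusted p = 0.0594) nor SHMT2 (0.1, adjusted p = 0.37) was called by edgeR.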

How the results depend on the processing

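Of 60 values of the 10 genes (6 comparisons each), 47 kept their direction and their side of the threshold under every alternative, and of 1112 values compared 1078 kept both. With at least 10 counts in every library 6 of the 10 genes were called with ATRA, since ATF3, ASNS and CHAC1 were no longer tested and SESN2 was not called. With no filter, 32.1% (ATRA), 25.5% (CDK4/6i) and 41.2% (CDK4/6i+ATRA) of the genes were called against non-treated cells, 39.0% and 32.7% for the combination against CDK4/6i and ATRA alone, and 22.9% for the interaction, since more genes were tested. Scaling by library size alone moved the median of all genes by -0.27 to -0.32 in the 4 contrasts with the combination and reversed ATF4 against ATRA (-0.177), ATF3 (-0.100) and SESN2 (-0.156) against non-treated cells, and the interactions of TRIB3 (-0.055), SHMT2 (-0.134), DELE1 (-0.200) and EIF2B3 (-0.162). It also reversed ERN1 against CDK4/6i (-0.144), PPP1R15B against ATRA (-0.006) and YME1L1 against non-treated cells (-0.176), CDK4/6i (-0.091), ATRA (-0.171) and in its interaction (-0.087), and YME1L1 was -0.020 against non-treated cells with no filter. Leaving out 1 library at a time gave ranges that crossed 0 for values that were not called: ATF3 (-0.104 to 0.353) and SESN2 (-0.023 to 0.186) with the combination against non-treated cells, ASNS with CDK4/6i (-0.241 to 0.146), against ATRA (-1.54 to 0.193) and in its interaction (-1.47 to 0.266), CHAC1 in its interaction (-0.757 to 0.121), TRIB3 (-0.104 to 0.005) and ATF5 (-0.092 to 0.035) against ATRA, and EIF2AK3 with CDK4/6i (-0.149 to 0.007). Against CDK4/6i alone ATF4 gained a call in 3 alternatives, and so did TRIB3 against ATRA alone, as given above. ATF4 against ATRA also lost its call with only the groups compared (0.064) and with no filter (0.033). With the replicate block, 10, 8, 8, 9, 7 and 8 of the 10 genes were called in the order of the comparisons above, as without it, and 81.3% of all genes with the combination against non-treated cells. No pairing by replicate number was seen, as 18 correlations of same-numbered libraries' deviations lay between -0.114 and 0.0702. Whether same-numbered libraries were prepared together is not stated in the labels, and these values cannot decide it. Where the cause of a change is not given here, it was not tested. Depth limits the groups in which libraries held fewer than 10 counts, which are ATRA and CDK4/6i+ATRA for CHAC1 and ASNS, CDK4/6i for ATF3, CDK4/6i+ATRA for PYCR1, and the non-treated and CDK4/6i groups for GDF15.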
